A study of Rattus norvegicus with 6 samples.

Results

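The genes of drug metabolism described here are 35 rat genes that encode the enzymes that modify drugs and other foreign compounds and the receptors that switch those enzymes on. They were chosen by gene symbol and known function, and no threshold on a measured value was used. An array probe belonged to a gene where the accession of the probe, without its version, mapped to that symbol in a table of RefSeq genes. Of the 35 genes, 32 had at least 1 probe on the array and 21 were measured well enough to test, among 29938 genes tested in all. Ugt2b17, Aldh1a7 and Tiparp, a target and feedback inhibitor of the Ah receptor, had no probe matched by accession and were not analysed here.

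The study profiled total RNA of the renal cortex of 6 male Sprague-Dawley rats bought at 5 weeks of age. In the vehicle group 3 rats received corn oil for 4 weeks, and in the phenylbutazone group 3 rats received phenylbutazone at 200 mg/kg/day for the same 4 weeks. Phenylbutazone is a non-steroidal anti-inflammatory drug, and each animal had its own one-colour Agilent array. The comparison asks whether genes that handle drugs such as phenylbutazone stood at other levels in the kidney cortex after repeated dosing.

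Drug metabolism runs in stages. Phase 1 enzymes, mainly the cytochromes P450 with their electron donor Por, oxidise or hydrolyse a compound, and phase 2 enzymes attach glucuronic acid or sulfate so that it can be excreted. The genes are under the control of ligand-activated factors. The pregnane X receptor (PXR, encoded by Nr1i2) and the constitutive androstane receptor (CAR, encoded by Nr1i3) act with the retinoid X receptor, classically on Cyp3a and Cyp2b genes. The aryl hydrocarbon receptor (Ahr) acts with Arnt on Cyp1a1, Cyp1a2, Cyp1b1, Aldh3a1, Ugt1a6 and on its own repressor Ahrr. Phenylbutazone itself is hydroxylated, to oxyphenbutazone among other products, and glucuronidated. In the kidney most of these enzymes are found in the proximal tubule, and several that dominate in liver are low there.

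All levels below are log2 intensities relative to the 75th percentile of the same array, so that 0 is the brightness that 75% of the probes stay under. Because probes differ in brightness for reasons other than RNA amount, levels are compared between arrays for 1 probe and never between genes. A difference is phenylbutazone minus vehicle in log2 units with its standard error (SE, n = 3 per group). The arrays had 65.2% to 68.4% of probes well above background by the scanner software's own flag. Across the genes tested they correlated (Pearson's r, a description across genes) at 0.982 to 0.990 within vehicle, 0.988 to 0.990 within phenylbutazone and 0.983 to 0.987 between the groups. Vehicle arrays 1 and 2 were on slide 1 and the other 4 arrays on slide 2, scanned on another day. Of the markers of renal cortex, 15 of 15 proximal tubule genes and 5 of 5 podocyte genes were detected. So were 9 of 12 hepatocyte and 6 of 7 macrophage genes, so such counts do not test the tissue label.

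Which of these genes the cortex expressed at all differed by family. A gene was called detected where the scanner software set that flag for one of its probes in 3 or more animals. That held for 21 of the 32 genes with a probe, for 17 on all 6 arrays, and 26 were above background on at least 1 array. All 5 genes of other oxidation and hydrolysis with a probe (Fmo1, Aldh1a1, Aldh3a1, Ces1d and Ces2c) were detected on every array. So were Por, Cyp2b2, Cyp2d4, Cyp2e1, Ugt1a1, Ugt1a6, Ugt2b35, Sult1a1, Sult1b1, Nr1i2, Ahr and Ahrr. Not well above background on any array with any probe were Cyp1a1, Cyp1a2, Cyp2b1, Cyp3a9, Cyp3a62 and Sult2a1, the hydroxysteroid sulfotransferase of liver. For these 6 genes the arrays give no fold, since both groups lay below background.

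**Figure D1:**
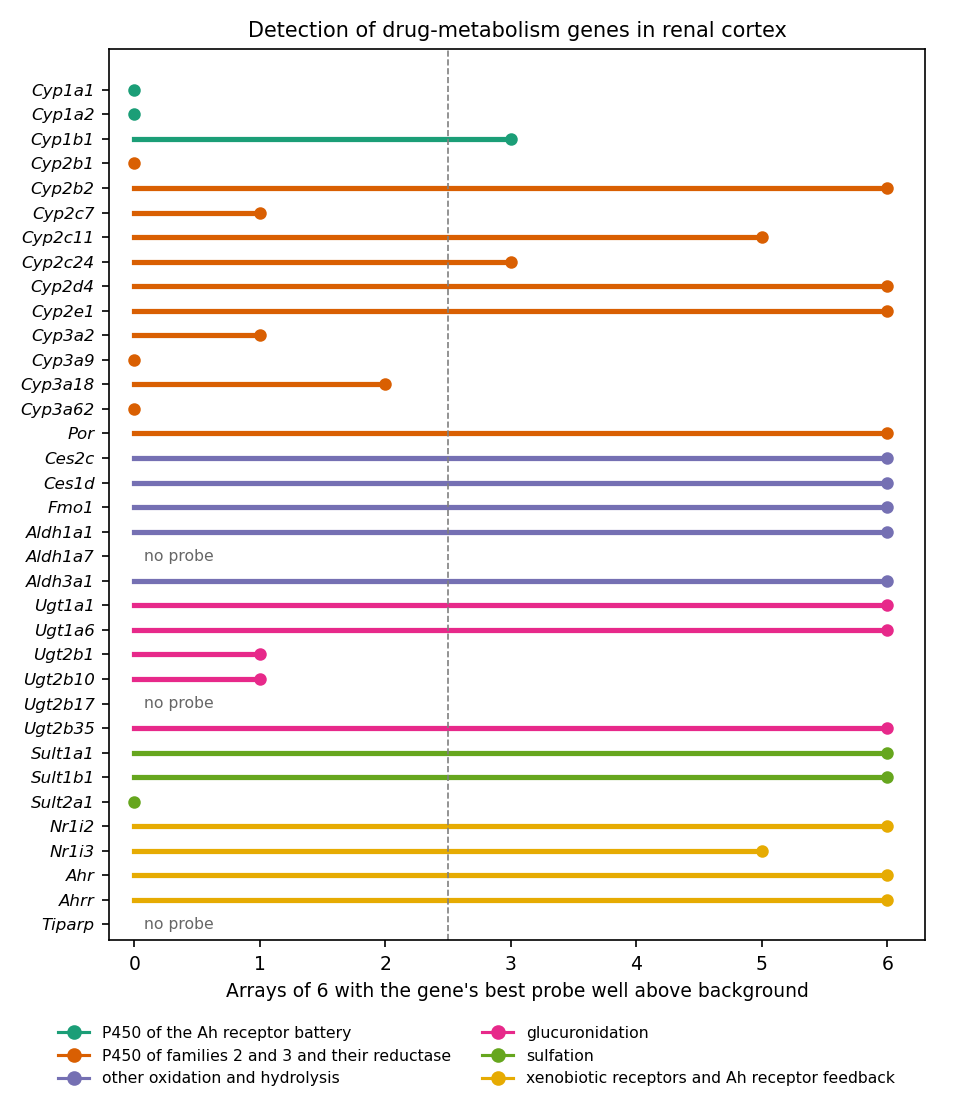
Number of arrays, out of 6, on which the best probe of each of the 35 genes was well above background, coloured by role. The dashed line marks the minimum of 3 arrays: 21 genes lie to its right, 11 genes with a probe to its left, and 3 genes had no probe.

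The 4 Cyp3a genes chosen here, from the textbook target family of PXR, were below detection in nearly every animal of both groups. Other Cyp3a genes were not among those chosen, so these 4 do not stand for every Cyp3a target of PXR. Cyp3a9 and Cyp3a62 were above background on 0 arrays, Cyp3a2 on vehicle array 2 alone (-5.11, against -7.88 to -7.42 on the other 5) and Cyp3a18 on vehicle array 1 (-4.07) and phenylbutazone array 3 (-3.74). No phenylbutazone array thus showed Cyp3a2 above background, and Cyp3a18 was seen in 1 animal of each group. The promoter of Cyp3a2 is shown because it carries, close together, the core motifs to which receptors such as PXR bind. The window runs from 250 bases before to 50 bases after the RefSeq start on GRCr8, at chr12:14343808-14344107 on the minus strand, written 5′ to 3′. Capitals mark the core motif of receptors of this class, AGGTCA, or TGACCT where it lies on the opposite strand. They also mark its variant AGTTCA, likewise TGAACT on the opposite strand.
Cyp3a2: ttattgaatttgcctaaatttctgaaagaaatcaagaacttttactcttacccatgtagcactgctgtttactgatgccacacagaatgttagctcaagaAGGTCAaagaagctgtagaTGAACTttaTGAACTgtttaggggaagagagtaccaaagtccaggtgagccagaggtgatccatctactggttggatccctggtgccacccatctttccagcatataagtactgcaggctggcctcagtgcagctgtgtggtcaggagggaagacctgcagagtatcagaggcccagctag
This window holds the core motif 1 time and its variant 2 times. AGTTCA occurred in the promoters of 4 of 4 chosen Cyp3a genes with a RefSeq promoter (Cyp3a2, Cyp3a9, Cyp3a18 and Cyp3a62). The variant occurred in 9 of 31 members, against 14.5% of all 33469 rat promoters of that length. AGGTCA occurred in 6 of 31 members against 16.2% of all. A match describes the letters only, and the 4 Cyp3a genes were too dim here to compare the groups.

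Other genes of the 35 were seen in single animals. Cyp2c7, a P450 of female-predominant liver expression, was above background with 1 of its 6 probes and on vehicle array 2 alone (-4.26, against -7.91 to -7.43 elsewhere). Ugt2b1 was above background on phenylbutazone array 3 alone (-3.56) and Ugt2b10 on vehicle array 1 alone (-3.69); both encode glucuronosyltransferases. Vehicle array 2, where Cyp2c7 and Cyp3a2 appeared, also had the highest hepatocyte marker level. Of 12 hepatocyte markers 9 were detected, whose mean deviation from each gene's mean over the arrays lay between -0.72 and 1.08 in vehicle, the latter on array 2, and between -1.22 and 0.75 in phenylbutazone. Albumin (Alb) read 0.27 on vehicle array 2 and -5.62 to -1.56 on the others, and transthyretin (Ttr) read -0.36 there and -7.64 to -2.52 elsewhere. Of the 9 markers 4 were highest on vehicle array 2 (Alb, Ttr, Apoa1 and Serpina1), and the other 5 were highest on another array (Apob, F2, Fgb, Apoc3 and Ahsg). The hepatocyte markers Tat, Cps1 and C9 were above background on 0 arrays. The part of other tissue in these signals was not tested.

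Across the 21 genes that could be tested, no difference passed the test. After Benjamini-Hochberg adjustment limma gave 0 of the 21 an adjusted p under 0.05, and over all 29938 genes tested the count was also 0 (0%); the adjusted p of the 21 ran from 0.333 to 0.980. At an unadjusted p under 0.05 limma had 3 of the 21 (Nr1i3, Cyp2d4 and Sult1a1), 14.3% against 12.2% of all genes; without vehicle animal 1 or 2 or phenylbutazone animal 2 or 3 it had 1. The 3 values of one group lay wholly above the 3 of the other in Nr1i3, Nr1i2 and Cyp2d4, 3 of 21 or 14.3% against 21.5% of all genes. Of these, 2 were higher in phenylbutazone (12.1% of all genes) and 1 was lower (9.39% of all genes). The median difference was 0.10 over the 21 genes, of which 12 lay higher and 9 lower, and 0.02 over all genes; the median size of a difference was 0.18 against 0.16. A difference of at least 2-fold was seen in 1 of the 21 genes, Cyp2c24, against 1.76% of all genes. The shares are near those of all genes, and 3 animals per group limit what could be seen: an exact two-sided permutation test of 3 against 3 cannot give a p below 0.1.

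**Figure D2:**
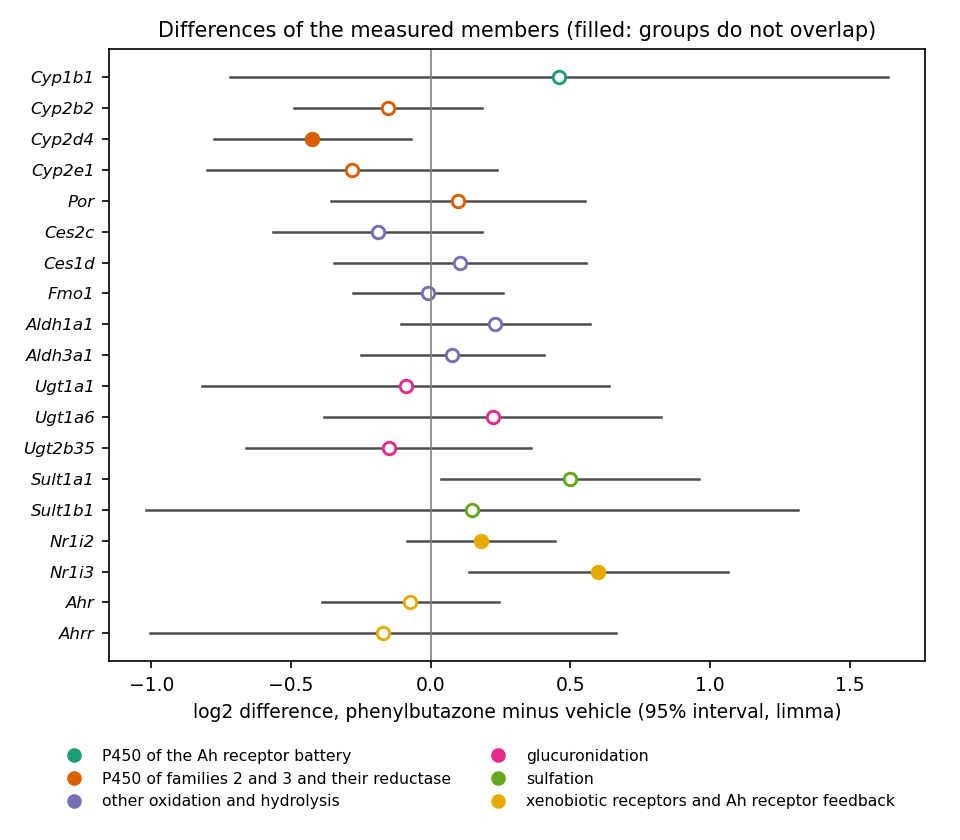
Log2 differences, phenylbutazone minus vehicle, with 95% intervals from limma, for 19 of the 21 tested genes, coloured by role; filled points are genes whose groups do not overlap. Only the intervals of Nr1i3, Sult1a1 and Cyp2d4 leave out 0, without adjustment for the number of genes. Cyp2c24 (-3.17 to 12.2) and Cyp2c11 (-3.63 to 4.12) are left out because their intervals are far wider.

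Among the receptors, Nr1i3 stood furthest from its vehicle level. It read -5.45, -4.93 and -5.06 on vehicle arrays 1 to 3 and -4.71, -4.66 and -4.26 on phenylbutazone arrays 1 to 3. Every phenylbutazone animal was above every vehicle animal, animal 3 most of all. The difference was 0.60 ± 0.19 (1.51-fold, 95% interval 0.14 to 1.06), which did not pass the adjustment over all genes (limma adjusted p = 0.333). Nr1i3 was dim: 3 of its 4 probes were above background on 0 arrays, and the fourth on 2 of 3 vehicle and 3 of 3 phenylbutazone arrays. Against vehicle array 3, the only vehicle array on the same slide as the phenylbutazone arrays, the difference was 0.51, and with the dim array set at its background limit it was 0.55. With normexp background correction it was 0.16.

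Nr1i2 was detected on all arrays and stood slightly higher in phenylbutazone. Its brighter probe read 2.40, 2.37 and 2.18 in vehicle and 2.47, 2.43 and 2.59 in phenylbutazone. The groups lay apart by a narrow gap, and the difference of 0.18 ± 0.11 (95% interval -0.09 to 0.44) did not pass, with a limma adjusted p of 0.544. The second probe read 0.66, 0.80 and 0.56 in vehicle and 0.75, 0.72 and 1.04 in phenylbutazone, so that its groups overlapped. PXR transcript was detected in all 6 animals while the Cyp3a genes chosen here were mostly below background.

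**Figure D3:**
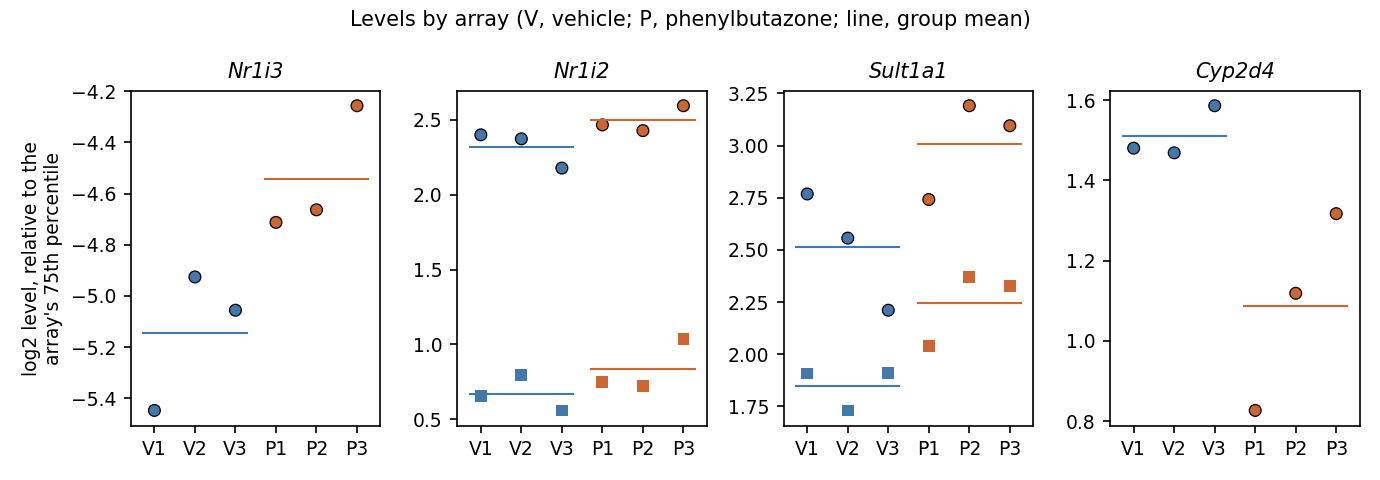
Log2 level on each of the 6 arrays for Nr1i3, Nr1i2, Sult1a1 and Cyp2d4 (blue, vehicle; orange, phenylbutazone; lines, group means; squares, a second detected probe). Nr1i3 lies at -5.45 to -4.93 in vehicle and -4.71 to -4.26 in phenylbutazone, Cyp2d4 at 1.47 to 1.59 and 0.83 to 1.32; the brighter Sult1a1 probe overlaps by 1 animal.

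The Ah receptor and its battery showed no common direction. Ahr read -3.95, -3.98 and -3.76 in vehicle and -3.77, -4.01 and -4.12 in phenylbutazone, a difference of -0.07 ± 0.13 (95% interval -0.39 to 0.24, limma adjusted p = 0.845). Ahrr, the repressor that Ahr induces, read -0.80, -1.12 and -2.16 in vehicle and -1.45, -1.53 and -1.61 in phenylbutazone. The phenylbutazone animals lay close together inside a wide vehicle range, and the difference was -0.17 ± 0.34 (limma adjusted p = 0.864). Vehicle array 3 had the lowest Ahrr level, so against it alone, within slide 2, the difference turned to 0.63. Cyp1b1, a P450 of the same battery, read -5.81, -5.90 and -5.83 in vehicle and -6.28, -4.26 and -5.62 in phenylbutazone. It was well above background on 1 vehicle and 2 phenylbutazone arrays, with phenylbutazone animal 2 standing high and the other animals near background. Its difference was 0.46 ± 0.48 (95% interval -0.72 to 1.64, limma adjusted p = 0.727). Its second probe, above background on 1 array of each group, was too dim to compare the groups.

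The promoters of Cyp1b1 and Ahrr are shown because they hold the letters that the Ah receptor and Arnt bind, GCGTG, more than once. Capitals mark every GCGTG on either strand (CACGC on the other). The windows run from 250 bases before to 50 after the RefSeq start on GRCr8, chr6:21094315-21094614 for Cyp1b1 and chr1:30821969-30822268 for Ahrr, both on the plus strand, 5′ to 3′.
Cyp1b1: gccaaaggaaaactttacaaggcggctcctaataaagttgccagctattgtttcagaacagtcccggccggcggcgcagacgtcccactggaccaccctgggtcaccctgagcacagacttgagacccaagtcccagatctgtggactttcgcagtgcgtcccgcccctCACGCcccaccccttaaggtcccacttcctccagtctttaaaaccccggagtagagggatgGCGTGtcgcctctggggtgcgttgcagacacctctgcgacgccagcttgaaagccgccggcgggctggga
Ahrr: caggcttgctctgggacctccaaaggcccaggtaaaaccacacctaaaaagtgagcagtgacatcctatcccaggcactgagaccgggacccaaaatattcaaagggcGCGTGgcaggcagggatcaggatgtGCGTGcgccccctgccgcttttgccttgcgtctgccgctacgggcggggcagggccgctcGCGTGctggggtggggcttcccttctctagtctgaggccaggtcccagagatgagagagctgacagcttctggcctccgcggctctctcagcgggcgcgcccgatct
Cyp1b1 has 2 and Ahrr 3 of them. GCGTG was found in 8 of 31 members with a RefSeq promoter (Ahrr, Ces1d, Cyp1b1, Cyp2b1, Cyp2b2, Por, Tiparp and Ugt1a6), against 29.7% of all promoters, so that these letters are common and their share among the members is near the background. Of the 8 genes, 6 were tested, and groups did not overlap in 0 of those 6, against 21.5% of all genes.

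The groups also overlapped in the remaining Ah receptor targets and the glucuronosyltransferases. Aldh3a1, an aldehyde dehydrogenase, read -0.76, -0.58 and -0.93 in vehicle and -0.84, -0.57 and -0.64 in phenylbutazone. Its groups overlapped throughout, with a difference of 0.08 ± 0.13 (limma adjusted p = 0.843), and its second probe gave -0.22. Ugt1a6, which glucuronidates phenols, read 5.95, 5.88 and 5.25 in vehicle and 5.58, 5.95 and 6.21 in phenylbutazone. The groups overlapped, and the difference was 0.22 ± 0.25 (limma adjusted p = 0.746) and 0.67 within slide 2. Over all arrays its other probes gave -0.11 and -0.05. Within slide 2 these did not share the 0.67: they read 0.69 and 3.99 in vehicle animal 3, against phenylbutazone means of 0.57 and 4.01. Ugt1a1, the bilirubin glucuronosyltransferase, read 1.72, 1.57 and 1.77 in vehicle and 0.91, 1.81 and 2.08 in phenylbutazone. Phenylbutazone animal 1 lay lowest and animal 3 highest, with a difference of -0.09 ± 0.30 (limma adjusted p = 0.924). Genes of the Ugt1a cluster share all exons but the first, and whether these probes tell them apart was not tested. Ugt2b35 read 5.08, 5.75 and 5.12 in vehicle and 5.04, 5.09 and 5.36 in phenylbutazone, a difference of -0.15 ± 0.21 (limma adjusted p = 0.796).

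Of the P450 genes with steady detection, Cyp2d4 was lower in every phenylbutazone animal. Cyp2d4, a member of the family that oxidises many basic drugs, read 1.48, 1.47 and 1.59 in vehicle and 0.83, 1.12 and 1.32 in phenylbutazone. The vehicle animals lay close together and phenylbutazone animal 1 lay lowest. The difference was -0.42 ± 0.15 (1.34-fold, 95% interval -0.78 to -0.07), which did not pass the adjustment (limma adjusted p = 0.357). Within slide 2 it was -0.50. Cyp2e1, which oxidises ethanol and small solvents, read 6.49, 6.27 and 6.43 in vehicle and 5.64, 6.35 and 6.34 in phenylbutazone. Animal 1 of the phenylbutazone group stood below all others while animals 2 and 3 lay inside the vehicle range. The difference was -0.28 ± 0.21 (limma adjusted p = 0.620), and -0.05 without that animal.

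The levels of Cyp2b2, a classic target of CAR, overlapped between the groups. It read -2.32, -2.29 and -2.68 in vehicle and -2.67, -2.60 and -2.47 in phenylbutazone, a difference of -0.15 ± 0.14 (95% interval -0.49 to 0.18, limma adjusted p = 0.684). Its other 4 probes were above background on 0 to 2 arrays, and the near-identical Cyp2b1 on 0 arrays, so this level rests on 1 probe. Within slide 2 the Cyp2b2 difference was 0.10, of opposite sign. Por, which supplies electrons to every microsomal P450, read 2.90, 3.02 and 3.51 in vehicle and 3.13, 3.43 and 3.16 in phenylbutazone. Its difference was 0.10 ± 0.19 (limma adjusted p = 0.860), and -0.27 within slide 2, since vehicle animal 3 had the highest level of all.

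Among the conjugating enzymes of the 35, Sult1a1 had the largest difference. This phenol sulfotransferase read 2.77, 2.56 and 2.21 in vehicle and 2.74, 3.19 and 3.10 in phenylbutazone. Phenylbutazone animals 2 and 3 lay above all vehicle animals, and animal 1 fell just below vehicle animal 1. The difference was 0.50 ± 0.19 (1.41-fold, 95% interval 0.04 to 0.96), which did not pass the adjustment (limma adjusted p = 0.387). A second probe read 1.91, 1.73 and 1.91 in vehicle and 2.04, 2.37 and 2.33 in phenylbutazone, with no overlap and a difference of 0.40. Within slide 2 the brighter probe gave 0.80, set against vehicle animal 3, its lowest vehicle reading. The second probe gave less there, with 1.91 in that animal against a phenylbutazone mean of 2.25. Sult1b1, a sulfotransferase of thyroid hormones, varied more between animals of a group than between the groups. It read 3.70, 2.40 and 2.80 in vehicle and 3.33, 2.26 and 3.76 in phenylbutazone, a difference of 0.15 ± 0.48 (limma adjusted p = 0.922). All 3 of its probes put vehicle animal 1 and phenylbutazone animals 1 and 3 above the other 3 animals.

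In hydrolysis and the other oxidations the groups overlapped for every gene tested. Aldh1a1, which makes retinoic acid from retinal, read 7.00, 6.85 and 6.71 in vehicle and 6.95, 7.00 and 7.30 in phenylbutazone, a difference of 0.23 ± 0.14 (limma adjusted p = 0.541). Differences of the carboxylesterases were 0.10 ± 0.19 for Ces1d and -0.19 ± 0.15 for Ces2c, the latter -0.46 within slide 2. That of the flavin monooxygenase Fmo1 was -0.01 ± 0.11, with a 95% interval of -0.28 to 0.26. Limma adjusted p ran from 0.541 to 0.980 over these 5 genes with Aldh3a1. Ces1d read lowest in vehicle animal 3 (3.17, against 3.64 to 3.85 on the other 5 arrays), and its difference within slide 2 was 0.50.

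The widest variation lay within the groups, in the Cyp2c genes. Cyp2c24 read -7.55, -7.77 and -1.23 in vehicle and -7.60, 2.05 and 2.56 in phenylbutazone. It was well above background in vehicle animal 3 and phenylbutazone animals 2 and 3 and in no other, and both of its probes gave that pattern. The 3 animals with signal stood at least 17.0-fold (vehicle animal 3) and up to at least 235-fold (phenylbutazone animal 3) above the highest background limit of the 3 dim arrays. Its spread within the groups ranked 1 of 29938 genes, with the readings of the dim arrays counted. The difference of 4.52 ± 3.17 (95% interval -3.17 to 12.2, limma adjusted p = 0.593) rests on dim arrays, stood at 3.75 with these set to their background limit, and was 0.23 within slide 2. The transcript was thus seen in 1 of 3 vehicle and 2 of 3 phenylbutazone animals.

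Cyp2c11, the male-specific P450 of rat liver, followed another division of the animals. It read -1.76, -1.80 and -4.56 in vehicle and -5.78, -1.76 and 0.16 in phenylbutazone, where animal 1 was not well above background. Vehicle animal 3 and phenylbutazone animal 1 were low and the other 4 were high. Over the 5 arrays above background the range was 26.5-fold, and its spread within the groups ranked 45 of 29938 with the reading of the dim array counted. The difference was 0.24 ± 1.60 (limma adjusted p = 0.963), and 2.10 within slide 2, where vehicle animal 3 is the only vehicle animal. The promoters of both genes, neighbours on chromosome 1, are shown because they share a long run beside the start site, while the genes divided the animals differently. Windows of 250 bases before to 50 after the RefSeq start on GRCr8 are at chr1:246174966-246175265 for Cyp2c11 and chr1:246286091-246286390 for Cyp2c24, both on the plus strand, 5′ to 3′. Capitals mark the longest run of bases found in both, 45 bases.
Cyp2c11: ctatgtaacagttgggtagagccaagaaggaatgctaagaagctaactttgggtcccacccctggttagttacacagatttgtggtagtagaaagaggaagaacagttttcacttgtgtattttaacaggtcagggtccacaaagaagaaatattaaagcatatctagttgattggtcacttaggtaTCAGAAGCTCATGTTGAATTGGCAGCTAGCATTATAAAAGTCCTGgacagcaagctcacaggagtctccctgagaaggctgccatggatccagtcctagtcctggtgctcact
Cyp2c24: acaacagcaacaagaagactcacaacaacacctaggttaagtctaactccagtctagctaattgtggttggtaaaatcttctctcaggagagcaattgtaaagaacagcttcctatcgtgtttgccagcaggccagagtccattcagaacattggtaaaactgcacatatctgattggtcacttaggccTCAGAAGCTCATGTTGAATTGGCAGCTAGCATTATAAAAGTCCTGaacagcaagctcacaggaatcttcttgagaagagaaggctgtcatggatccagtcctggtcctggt
In vehicle animals 1 and 2 Cyp2c11 was detected and Cyp2c24 was not, and in vehicle animal 3 and phenylbutazone animals 2 and 3 both were. Transcripts of this subfamily are similar in sequence, and cross-hybridisation between probes was not tested.

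Some genes outside the 35 divided the animals as Cyp2c11 did; they were picked after their values were seen and are given as a description. Slc7a13 and Slc22a7, transporters of the straight part of the proximal tubule, were lowest in the same pair of animals. Slc7a13 read 3.90, 4.38 and 1.99 in vehicle and 1.46, 4.37 and 5.41 in phenylbutazone. Slc22a7 read -2.75, -3.13 and -4.31 in vehicle and -4.90, -2.69 and -0.87 in phenylbutazone. Hnmt, a conjugating enzyme that methylates histamine, read -0.15, 0.21 and -2.73 in vehicle and -4.90, -0.39 and 0.76 in phenylbutazone. The P450 gene Cyp2d1 read 4.36, 4.60 and 3.51 in vehicle and 2.68, 4.58 and 5.31 in phenylbutazone. Of the 15 proximal tubule markers, Slc7a13, Slc22a7, Kap and Ggt1 ranged over 1.18 to 4.03 log2 units between the arrays and the other 11 over 0.18 to 0.69. Phenylbutazone animal 1 was also lowest in Kap (6.32, against 8.14 to 8.92), Ggt1 (4.38, against 5.07 to 5.56), Cyp2e1, Ugt1a1 and Cyp2d4, and alone high in the aldo-keto reductase Akr1b8 (4.20, against 0.26 to 0.94). The part of these patterns in the differences of Cyp2c11, Cyp2e1, Ugt1a1 and Cyp2d4 was not tested. In whole tissue fewer cells of a type and less RNA per cell cannot be told apart.

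**Figure D4:**
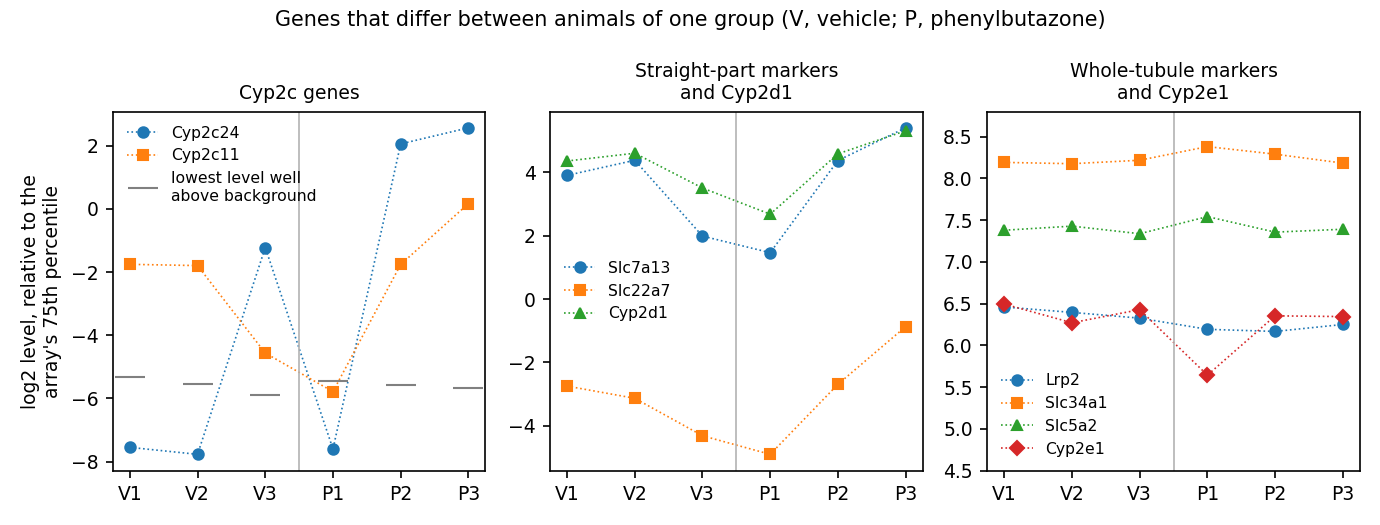
Log2 level on each array (V, vehicle; P, phenylbutazone) of genes that differ between animals of a group, next to 3 proximal tubule markers of small range. Left, Cyp2c24 is above the background limit (grey bars) in V3, P2 and P3 and Cyp2c11 is low in V3 and P1; middle, Slc7a13, Slc22a7 and Cyp2d1 are low in V3 and P1; right, Lrp2 (6.33 to 6.46 in vehicle, 6.17 to 6.25 in phenylbutazone), Slc34a1 and Slc5a2 span at most 0.29 while Cyp2e1 is low in P1 (5.64).

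Levels of cell type markers also differed between arrays. Each list but that of the adrenal cortex is given as the mean deviation of its detected genes from their own mean over the 6 arrays, the hepatocyte list further up. For the 15 proximal tubule markers it lay between -0.16 and 0.04 in vehicle and between -0.41 (animal 1) and 0.33 in phenylbutazone. These means lean on Slc7a13, Slc22a7, Kap and Ggt1, the markers of widest range (1.18 to 4.03 log2 units). Phenylbutazone animal 1 was lowest in those and in Slc13a3, but highest in Slc34a1, Slc5a2 and Slc5a12. Its mean of -0.41 therefore does not describe a lower level across the list. Of 10 erythrocyte markers 8 had a probe, were detected and lay higher in phenylbutazone, by a median of 0.47, with animals at -0.38 to -0.11 in vehicle and -0.14 to 0.55 in phenylbutazone. The 5 collecting duct markers lay at -0.22 to -0.08 and -0.01 to 0.30. By gene the groups lay apart in Slc26a4 (0.68) and Atp6v1g3 (0.57). They overlapped in Slc4a1 (0.16), Aqp3 (0.14) and Aqp2 (-0.25). In the remaining lists the ranges of the groups overlapped. Thick ascending limb and distal tubule markers lay at -0.40 to 0.21 in vehicle and -0.14 to 0.12 in phenylbutazone. Podocyte markers lay at -0.09 to 0.10 and -0.02 to 0.02, adipocyte markers at -0.24 to 0.46 and -0.35 to 0.46, and macrophage markers at -0.06 to 0.02 and -0.22 to 0.16. Of 9 adrenal cortex markers 5 were detected. Among them Mc2r passed the filter only through the phenylbutazone arrays, so no mean of this list is given. Mc2r was well above background on 0 of 3 vehicle and 3 of 3 phenylbutazone arrays. It read -4.28, -5.50 and -5.17 in phenylbutazone. Its vehicle readings of -6.27, -7.43 and -6.14 lay below the background limits of those arrays (-5.32, -5.53 and -5.90), so no size of difference is given. The other 4 detected markers had differences between -0.50 and 0.26, and the groups overlapped in each of them. Star, Cyp11b2 and Nr5a1 were above background on 0 arrays. Their part in the differences of Nr1i3, Sult1a1 and Cyp2d4 was not tested.

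A further list of 172 genes of the same pathways was compared to place the 35. Of them 150 had a probe and 119 were tested, and with limma 0 had an adjusted p under 0.05. At an unadjusted p under 0.05 limma had 11 (9.24%), of which 9 were higher and 2 lower, and groups did not overlap in 18 (15.1%), 11 higher and 7 lower. Over all genes these shares were 12.2% and 21.5%, and the median difference of the list was 0.04. By role, 9 of 55 other phase 1 enzymes, 4 of 32 other conjugating and cofactor enzymes and 5 of 32 receptor partners and other receptors had groups that did not overlap.

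The highest placed of these genes included partners of the receptors. Gadd45b, described as a coactivator of CAR in liver, read -0.11, -0.15 and -0.06 in vehicle and 0.48, 0.78 and 0.70 in phenylbutazone. The vehicle animals lay close together below all the others, with a difference of 0.76 ± 0.11 (1.69-fold, limma adjusted p = 0.164). Without vehicle animal 3, where treatment and slide divide the arrays alike, limma gave it an adjusted p of 0.0469. The glucuronosyltransferase gene Ugt2b7 read -0.44, -1.07 and -1.08 in vehicle and 0.13, 0.41 and 0.14 in phenylbutazone. Its difference of 1.09 ± 0.20 (2.13-fold, limma adjusted p = 0.216) was 1.31 within slide 2. Arnt2, a relative of the Ahr partner Arnt, stood at 0.79 ± 0.23, and Rxrg, one of the retinoid X receptors, at 0.36 ± 0.11. Nnmt, which methylates nicotinamide, stood at 0.46 ± 0.12 and the aldo-keto reductase Akr7a3 at 0.43 ± 0.14. The limma adjusted p of these 4 genes ran from 0.296 to 0.345.

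In the other direction the differences were smaller. The flavin monooxygenase Fmo4 read 2.07, 1.95 and 2.18 in vehicle and 1.56, 1.71 and 1.92 in phenylbutazone, a difference of -0.33 ± 0.13. Ugdh, which makes the UDP-glucuronic acid that glucuronosyltransferases use, stood at -0.19 ± 0.10. Cbr4, Pon3 and Ugt8 stood between -0.23 and -0.19. Each of these 5 genes was lower in all phenylbutazone animals than in any vehicle animal, and 0 of the 5 passed the adjustment (limma adjusted p 0.394 to 0.564).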

How the data were processed

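The deposited scanner files of the 6 arrays hold a processed spot intensity on a linear scale, read with Agilent Feature Extraction 10.7 per the submitters' processing notes. Per the file headers it is background-subtracted, without scaling across arrays. A value table, also deposited, holds a ratio, which was the same intensity divided by the array's 75th percentile when set against the scanner values. Here each array's 75th percentile (891 to 1003) was subtracted from its intensities on the log2 scale. The 1439 control spots and 40 probes with an outlier flag were dropped; 0 spots were saturated. The filter kept the 41006 of 61537 probes that at least 3 of 6 arrays showed well above background, and the brightest kept probe stood for its gene. Accessions without version were matched to RefSeq genes of GRCr8 for names (28206 probes), and promoters came from RefSeq on the same assembly. The array number limits the precision.

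Groups were compared by a two-sided test in limma 3.58.1 (lmFit, then eBayes; R 4.3.3), with Benjamini-Hochberg adjustment over all 29938 genes and a threshold of 0.05. The labels call the 3 samples of a group biological replicates. The fit was tested on simulated data. The members, lists and tests were chosen with earlier results of these data known. Each array's value is given for members whose groups did not overlap, that differed by at least 0.5, or that belong to the receptors' batteries, and some others for contrast. From the further list, the 6 genes in each direction of smallest p with groups apart were named; a gene that this rule names is not reported here. Alternatives were other scalings, normexp with an offset of 50 on median intensities, quantile normalization, the deposited ratios, other filters, the mean over probes, an intensity trend, slide or replicate blocks, slide 2 alone and leaving out each replicate. Dim arrays set at their background limit were added after seeing the data.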

Additional observations from a re-analysis of the deposited data

How the results depend on the processing

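With limma 0 of the 21 tested genes of drug metabolism passed an adjusted p under 0.05 in any setting, and the lowest adjusted p among them was 0.0636 (Ces1d, slide as a fixed block). Over all genes the count, 0 as reported, was 2 with normexp, 1 with quantile normalization, 8 with an intensity trend and 1 with slide as a random block, and 0 to 814 over the fits that left out each replicate. The 814 arose without vehicle replicate 3, where treatment and slide divide the arrays alike. The count of members whose groups do not overlap, 3 as reported, was 5 with scaling to the median (23.3% of all genes), 4 with normexp, 2 among genes above background on all 6 arrays, and 15 on slide 2 alone, where 1 vehicle array faces 3 and 72.6% of all genes lie apart. It was 3 to 9 over the fits that left out a replicate (6 without vehicle replicate 1 or 3, 9 without phenylbutazone replicate 1), when 27.6% to 43.7% of all genes lie apart. The count detected, 21, was 17 for all 6 arrays and 26 for at least 1. Nr1i3, Nr1i2, Cyp2d4, Sult1a1, Cyp2c24, Cyp2e1, Ces2c and Aldh1a1 kept their sign in every setting run, but not their size. Nr1i3 (0.60) was 0.159 with normexp. With slide as a fixed block Nr1i2 was 0.319, Sult1a1 0.798, Aldh1a1 0.376, Ces2c -0.460 and Cyp2c24 0.231; with slide as a random block Ces2c was -0.363 and Cyp2c24 1.77, and with quantile normalization Aldh1a1 was 0.117. Leaving out each replicate gave 0.110 to 0.221 for Nr1i2 (lowest without vehicle replicate 3), 0.122 to 0.304 for Aldh1a1 (lowest without phenylbutazone replicate 3), -0.293 to -0.054 for Ces2c (nearest 0 without vehicle replicate 3), -0.403 to -0.048 for Cyp2e1 (nearest 0 without phenylbutazone replicate 1) and 2.74 to 7.82 for Cyp2c24. Members at an unadjusted limma p under 0.05, 3 as reported, were 1 to 3 over the fits that left out a replicate and 5 with slide as a fixed block, where 31.6% of all genes were.

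Signs turned with slide as a fixed block or on slide 2 alone, which give the same value, for Cyp2b2 (0.097), Por (-0.269), Ugt2b35 (0.046) and Ahrr (0.631), and with slide as a random block for Cyp2b2 (0.0068), Por (-0.138) and Ahrr (0.342). They also turned for Fmo1 with scaling to the median (0.037) and normexp (0.017), and for Aldh3a1 with normexp (-0.068) and the mean over probes (-0.073). The cause was not tested. Leaving out each replicate gave ranges across 0 for Cyp1b1 (-0.102 to 0.906), Cyp2c11 (-1.07 to 1.91), Por (-0.026 to 0.278), Ugt1a1 (-0.329 to 0.254), Ugt1a6 (-0.0029 to 0.388), Ugt2b35 (-0.270 to 0.068), Ces1d (-0.096 to 0.246), Sult1b1 (-0.173 to 0.575), Fmo1 (-0.073 to 0.063), Aldh3a1 (-0.011 to 0.168), Ahr (-0.172 to 0.0018) and Ahrr (-0.573 to 0.110).

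Deviations of same-numbered animals correlated at -0.030, 0.011 and -0.074, which shows no pairing by number. With 3 animals per group and vehicle arrays on both slides, these values cannot exclude one. With the replicate block 0 genes had a limma adjusted p under 0.05 and 2695 an unadjusted one, 2 of them members, and 3 members had groups apart. Slide limits every comparison, since 1 vehicle array shares the slide of the treated arrays. Dim signal limits the Cyp3a, Cyp1a and Cyp2b genes, and setting dim arrays at their background limit, chosen after seeing the data, left the 3 counts at 0, 0 and 3.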
